A study of Mus musculus with 11 samples.

Results

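The leptomeninges are the thin membranes that wrap the brain and cord. Their fibroblasts lay down collagen and basement membrane, carry solutes between the cerebrospinal fluid and the tissue, and make retinoic acid, and related fibroblasts line the larger vessels. In neuroinflammation the same membranes are a place where immune cells gather, and stromal cells answer interferon with guanosine triphosphatases (GTPases) of the innate defence and with the machinery of antigen presentation. The nuclei described here were chosen by marker transcripts meant for leptomeningeal cells and fibroblasts. They came from 189709 single-nucleus RNA-sequencing barcodes of the mouse hindbrain and upper cervical cord. The rule was met by 279 nuclei, of 186863 that passed the limits on genes and mitochondrial transcripts. Of the 279, 92 lay outside the clusters led by fibroblast genes. The clusters that were so led held 35.6% of the UMIs (counted transcripts) of the 279.

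All mice were male, 8 to 12 weeks old and carried loxP-flanked Il12rb2, which encodes the signalling chain for interleukin-12. Mice with the loxP sites alone, Il12rb2fl/fl (fl), were set against NestinCre/+Il12rb2fl/fl littermates (NestinCre), in which Cre is driven by Nestin regulatory sequence that is active in the progenitors of neurons and macroglia. The study asked what loss of the receptor in the neuroectoderm does at the onset of experimental autoimmune encephalomyelitis (EAE), induced with MOG35-55 peptide in complete Freund's adjuvant plus pertussis toxin and sampled at day 10. There were 4 fl EAE and 4 NestinCre EAE libraries, of which 3 of each came from sequencing run 1 and the fourth from run 2, and non-immunized (naive) libraries numbered fl naive 2 (run 2), fl naive 3 (run 3) and NestinCre naive 2 (run 3). Each library was a separate sample. The study states 4 mice of each genotype in EAE, but the labels do not say how animals map to libraries. The p-values therefore measure the spread between these samples. The study used the naive fl sample sequenced alongside the run 2 EAE samples only as an internal control for reproducibility and batch effects. Whether fl naive 2 and fl naive 3 came from different mice is not stated. Values listed for a group follow the library order 1 to 4, and those for naive mice the order fl naive 2, fl naive 3 and NestinCre naive 2. Levels are given in CPM, the UMIs of a gene scaled to the total UMIs of the same nuclei in a library. Libraries held 13120 to 22951 barcodes and 40761007 to 86063464 unique molecular identifiers (UMIs, counted transcripts). Pairs of libraries shared 47 to 140 barcode sequences, and no member nucleus carried a barcode that was a member in another library.

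A nucleus was a member if it had 500 or more detected genes, under 5% mitochondrial UMIs, and UMIs of at least 2 of 8 markers (Dcn, Col1a2, Col1a1, Col3a1, Slc6a13, Lum, Bnc2 and Ranbp3l) with Dcn, Col1a2 or Slc6a13 among them. It could have no UMI of the myeloid receptor gene Csf1r, at most 1 UMI of the myelin genes Mog and Mag, and under 0.2% of its UMIs in 4 genes used to mark cerebellar granule cells. Of 365 nuclei that met the marker condition, 10 had a Csf1r UMI, 28 had too many Mog and Mag UMIs and 48 had granule genes at or above the limit. The member nearest to that limit stood at 0.198% and the nearest nucleus outside it at 0.202%. Marker support was thin for many: 147 members had exactly 2 markers, 132 had 3 or more, 36 had 5 or more and the most was 7, while 2003 further nuclei had a single marker and were left out. Members had a median of 3120 UMIs, against 2456 over all nuclei that passed. Per library there were 20, 22, 27 and 33 members in fl EAE, 20, 13, 10 and 30 in NestinCre EAE, 44 and 21 in fl naive 2 and 3, and 39 in NestinCre naive 2.

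Clustering divided the 279 nuclei into 6 clusters, and 3 of them, clusters 1, 3 and 6, with 67.0% of the members, were led by fibroblast genes. The 48 fibroblast markers examined included the 8 by which the nuclei had been chosen, so that part of each count below was set by the choice. Cluster 1 (143 nuclei) was led by Slc7a11, the cystine carrier, Ranbp3l, Cped1, Slc6a20a and Adamts12, with Slc6a13, Bmp6, Colec12, Dcn and Lama1 next, and 28 of the 48 fibroblast markers were raised in it, of which 6 belonged to the 8 of the rule. Cluster 3 (37 nuclei) was led by Slc47a1, an organic cation exporter, with Bnc2, Cped1, Adamtsl3, Slc26a7, Prg4, Tbx15, Fbxl7, Eya2 and Slc9a2. It had 23 fibroblast markers raised and 4 of 9 arachnoid barrier markers, namely Cdh1, Abcg2, Slc47a1 and Klf5. Cluster 6 (7 nuclei) was led by Cped1, Aox3, Rbpms and Uaca and had 25 fibroblast markers raised. A marker was counted as raised if it stood at 20 CPM or more and at least 2-fold above all other nuclei, with 10 CPM added to each side. These clusters, called fibroblast-led below, held 187 nuclei but 35.6% of the members' UMIs.

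The other 92 nuclei went against the label. Cluster 2 (54 nuclei) had a median of 13670.5 UMIs and alone held 54.8% of the members' UMIs. Its leading genes Bnc2, Cped1, Bmp6 and Dcn stood up to 10.3-fold over other nuclei, and 7 of 48 fibroblast markers were raised, of which 4 (Dcn, Col1a2, Bnc2 and Ranbp3l) belonged to the rule. So were 2 of 8 neuron markers (Slc17a6 and Slc6a5), 2 of 7 oligodendrocyte progenitor markers (Lhfpl3 and Pcdh15) and 1 each of the choroid plexus epithelial (Htr2c), endothelial (Tek) and mural (Notch3) markers. The study counted most of its nuclei as neurons, so general neuron markers could hardly stand 2-fold above the other nuclei. In the cluster neuron markers summed to 3223 CPM, oligodendrocyte progenitor markers to 3121 CPM and fibroblast markers to 1506 CPM. Slit2, Vwc2 and Gabra5 were also among its 10 leading genes. Across libraries, all other nuclei had 3627 to 4762 CPM of neuron markers and 835 to 1411 CPM of fibroblast markers. Their oligodendrocyte progenitor markers summed to 1134 to 1792 CPM. Cluster 1 had 550 CPM of neuron, 764 CPM of progenitor and 30201 CPM of fibroblast markers. By each of these sums cluster 2 stood nearer to the other nuclei than to cluster 1. The markers raised do not settle which type its nuclei are. Clusters 4 (20 nuclei, led by Aldh1a1 and Slc39a12) and 5 (18 nuclei, led by Slc1a3, Lama2 and Prex2) had 8 and 7 of 9 astrocyte markers raised. Doublet scoring marked 3 members. The genes of a cluster were used to build it, so these counts are a description, and for the genes and lists described at length below, values in the fibroblast-led clusters stand beside those over all members.

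**Figure D1:**
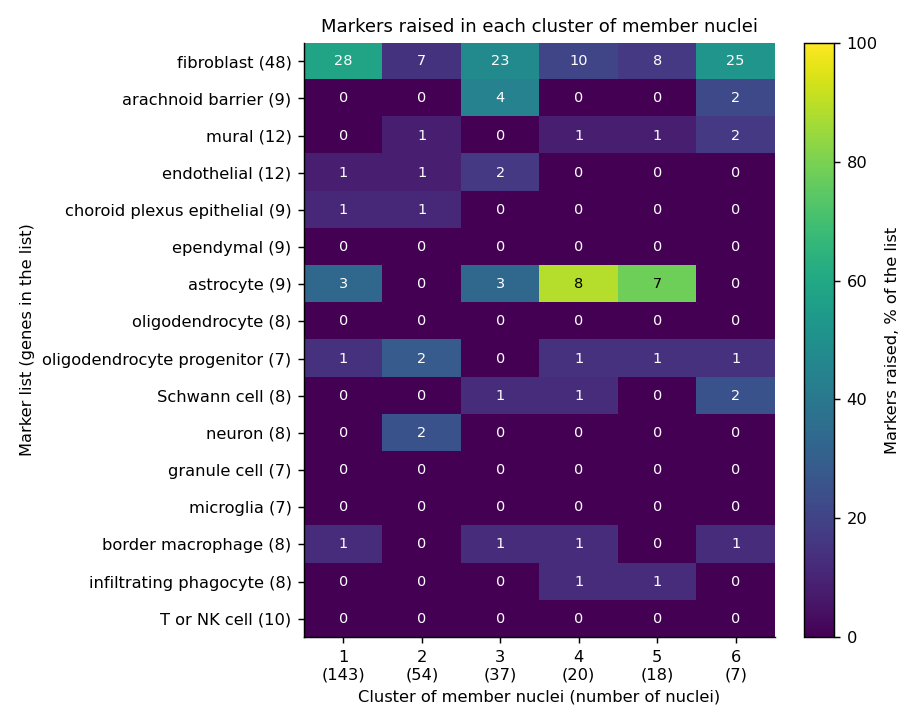
Number of markers raised in each cluster of member nuclei (columns, with the number of nuclei) for 16 marker lists (rows, with the genes in each list); the colour is the share of the list in percent. Fibroblast markers were raised most in clusters 1, 3 and 6 (28, 23 and 25 of 48), and astrocyte markers in clusters 4 and 5.

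The levels of the 3 markers of which each member had to carry at least 1 are given for the fibroblast-led clusters as a description. Their excess over the other nuclei was set by the choice of nuclei and is no result. Dcn, the collagen-binding proteoglycan decorin, stood at 547 ± 95.6 CPM (SD, n = 4) in fl EAE, 1026 ± 637 CPM (n = 4) in NestinCre EAE and 585 ± 240.1 CPM (n = 3) in naive libraries, where the other nuclei had 0.66 to 3.89 CPM. Col1a2, a chain of type I collagen, stood at 345 ± 132, 647 ± 327 and 351 ± 153 CPM in the same order, and the other nuclei had 0.9 to 2.31 CPM. The γ-aminobutyric acid and taurine transporter gene Slc6a13 stood at 526 ± 84.4, 492 ± 264 and 658 ± 267 CPM, against 0.36 to 0.709 CPM elsewhere. The groups overlapped for all 3 genes.

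Solute carriers, retinoic acid enzymes and secreted factors were part of the same profile. Slc7a11 stood at 2114 ± 740.3 CPM in fl EAE, 1696 ± 992 in NestinCre EAE and 2145 ± 645 in naive libraries (SD, n = 4, 4 and 3). Aldh1a2, which makes retinoic acid, stood at 213 ± 108, 338 ± 229.8 and 323 ± 222 CPM. Bmp6, a bone morphogenetic protein, stood at 1359.8 ± 485, 988 ± 165 and 1293 ± 68 CPM. Ptgds, the prostaglandin D synthase abundant in leptomeninges, varied widely between libraries, from 232 CPM in NestinCre EAE 2 to 13019.8 CPM in NestinCre naive 2. Slc47a1 had 1129, 296, 426 and 441 CPM across fl EAE, and 0, 116, 152 and 195 CPM across NestinCre EAE. The genotypes did not overlap, and the naive libraries had 449.7, 616 and 1173 CPM.

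The library labels were checked on the transcripts of the Cre line, since the construct holds Nestin regulatory sequence, and growth hormone (Gh) sequence is a common part of such constructs. In all nuclei other than members, Nes stood at 0.0371 to 0.12 CPM in fl EAE, 0.808 to 0.984 CPM in NestinCre EAE, 0.0313 and 0.0529 CPM in fl naive, and 1.23 CPM in NestinCre naive 2. Among members, Nes had 0 UMIs in every fl library, 0, 0, 2 and 3 across NestinCre EAE and 1 in NestinCre naive 2, and Gh had 2 UMIs, in NestinCre EAE 4. All of these lay in the fibroblast-led clusters. In NestinCre EAE 3 and 4 those clusters also held 2155 and 9841 CPM of endothelial and 2398 and 4660 CPM of mural markers. Whether these Nes UMIs came from the construct or from Nes itself was not tested. In the other nuclei Gh stood at 0 to 0.473 CPM in fl libraries, where the 2 above 0 were both of run 2, and at 0.675 to 2.75 CPM in NestinCre libraries. Receptor transcripts were near absent. Il12rb2 (chr6:67268302-67353172, GRCm39) had 1, 0, 0 and 1 UMIs in the members of fl EAE, 2, 3, 1 and 2 across NestinCre EAE, and 1, 3 and 0 in the naive libraries. Only 2 of these UMIs, in fl EAE 4 and fl naive 2, lay in fibroblast-led clusters. Il12rb1 (chr8:71261093-71276183) had 1 UMI in all, in NestinCre EAE 2. Reads are counted over the whole of Il12rb2, so its UMIs do not check the deletion, and at this depth its level could not be resolved.

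The yield of members overlapped between the genotypes. Shares of the nuclei passing the limits were 0.128%, 0.128%, 0.152% and 0.181% across the fl EAE libraries and 0.150%, 0.0760%, 0.0769% and 0.131% across the NestinCre EAE libraries. With averages of 0.148% ± 0.0253 for fl and 0.108% ± 0.0377 for NestinCre (SD, n = 4 each), NestinCre stood -0.0391 percentage points from fl, which missed the threshold of an exact two-sided permutation test (p = 0.229 over 70 assignments, where the smallest possible p is 0.0286). Within run 1 the difference was -0.0353 points (exact permutation p = 0.3, smallest possible 0.1), and with 3 or more markers required it was -0.0313 points (exact permutation p = 0.0571). Naive libraries gave 0.219% and 0.125% in fl naive 2 and 3 and 0.263% in NestinCre naive 2. EAE libraries together had a mean of 0.128% ± 0.0363 (n = 8) against 0.202% ± 0.0706 (n = 3), and the gap of -0.0741 points missed the threshold of the exact permutation test (p = 0.0606, smallest possible 0.00606). With 3 or more markers required the difference was -0.0602 points and passed (exact permutation p = 0.0182), and without fl naive 3 it was -0.113 points and passed (exact permutation p = 0.0222). Without NestinCre naive 2 it was -0.0436 points and did not pass (exact permutation p = 0.222). Run 1 held EAE libraries alone and run 3 naive libraries alone, and in run 2 the shares were 0.181% in fl EAE 4 and 0.131% in NestinCre EAE 4 against 0.219% in fl naive 2. Run and disease state therefore cannot be fully told apart.

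**Figure D2:**
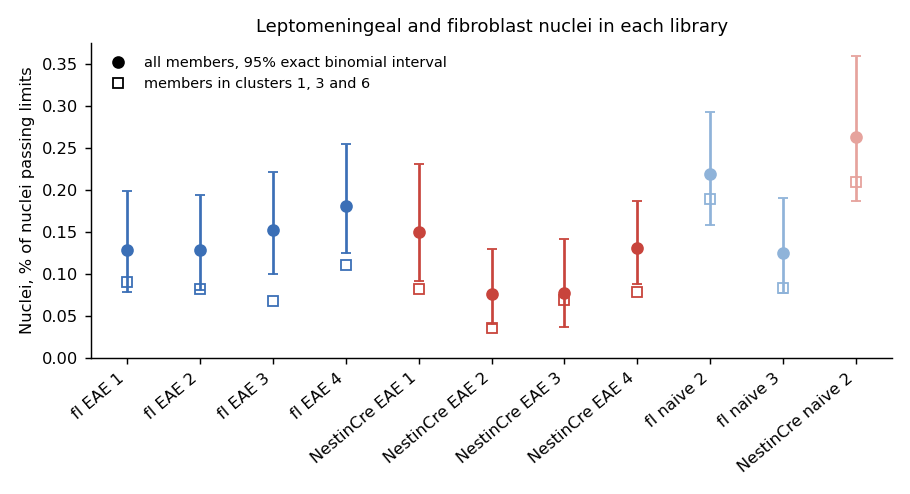
Nuclei chosen by the leptomeningeal and fibroblast rule, in percent of the nuclei passing the limits, for each of the 11 libraries. Filled points are all members with 95% exact binomial intervals (counting error only). Open squares are the members in fibroblast-led clusters 1, 3 and 6. Shares ran from 0.0760% (interval 0.0405 to 0.130) in NestinCre EAE 2 to 0.263% (0.187 to 0.359) in NestinCre naive 2, and the genotypes overlapped in EAE.

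In EAE, 3 genes were called between the genotypes, all higher in the NestinCre members, and the interferon-induced GTPase genes Gm4951 and Iigp1 were among them. UMIs were summed over the members of each library and 2894 genes passed the filter on low counts (filterByExpr); edgeR's quasi-likelihood test with sequencing run as a covariate called 3 of them at a Benjamini-Hochberg adjusted p under 0.05, which is 0.104% of the genes tested. A further 124 genes had an unadjusted p under 0.05 without passing adjustment, of 127 in all. That is fewer than such a limit would let through by chance if no gene differed.

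Gm4951 and Iigp1 encode immunity-related GTPases, which act on the vacuoles of intracellular microbes. Gm4951 had 0, 1, 5 and 2 UMIs across fl EAE and 47, 27, 37 and 31 across NestinCre EAE, a log2 fold change of 4.49 (SE 0.55, adjusted p = 0.0127 in edgeR). Iigp1 had 0, 0, 6 and 2 UMIs against 65, 51, 63 and 32, a log2 fold change of 5.13 (SE 0.67, adjusted p = 0.0148 in edgeR). No library of one genotype reached into the range of the other for either gene. With so few UMIs in fl EAE, both genes passed the filter on low counts only through the NestinCre EAE libraries, where they were high. The pair are near relatives and neighbours at chr18:60345048-60381504 and chr18:60506680-60525706 (GRCm39), so that some of their reads could be assigned to either. The naive libraries held 1, 1 and 7 UMIs of Gm4951 and 4, 0 and 2 of Iigp1, far below NestinCre EAE. A count of 0 in fl EAE 1 allows up to 3 counts, or 23.8 CPM, which is under the lowest NestinCre value of 120 CPM for Gm4951 and 124 CPM for Iigp1. All 3 calls were lost, and 0 genes were called, on leaving out any of 4 libraries (fl EAE 1, 2 or 3, or NestinCre EAE 1; highest adjusted p = 0.130 in edgeR), while the log2 fold changes over 20 settings stayed within 4.07 to 5.48 for Gm4951 and 4.68 to 6.11 for Iigp1.

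**Figure D3:**
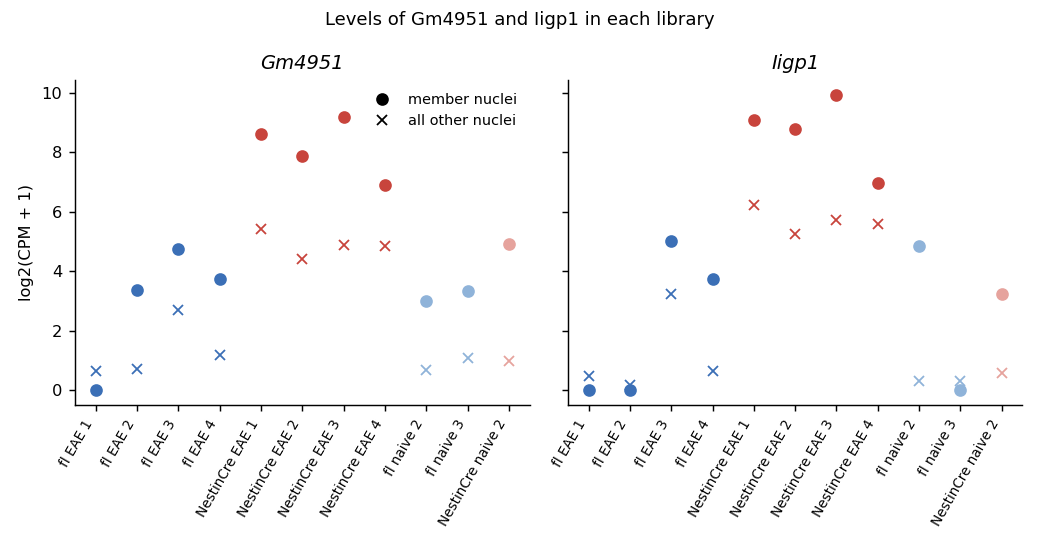
Level of Gm4951 and Iigp1 as log2(CPM + 1) in each library, in member nuclei (circles) and in all other nuclei (crosses), with fl in blue, NestinCre in red and naive libraries paler. In both sets of nuclei the 4 NestinCre EAE libraries lie above the 4 fl EAE libraries; member nuclei of NestinCre EAE had 124 to 989 CPM of Iigp1 against 0 to 31 CPM in fl EAE.

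In NestinCre EAE the UMIs of these genes lay mostly in the fibroblast-led clusters. There Gm4951 stood at 0, 32.8, 114 and 35.3 CPM across fl EAE and 1135, 1563, 1093 and 325 CPM across NestinCre EAE. Iigp1 was at 0 in fl EAE 1, 2 and 3 and at 35.3 CPM in fl EAE 4, and at 1530.4, 2953, 1852 and 417 CPM in NestinCre EAE. In cluster 2 the summed level of 20 interferon-induced GTPase genes was 0 to 485 CPM in fl EAE and 23.4 to 455 CPM in NestinCre EAE, and the genotypes overlapped. The upper ends came from fl EAE 3 and from the 1 cluster 2 nucleus of NestinCre EAE 3. The other libraries stood at 0 to 35.9 CPM in fl EAE and 23.4 to 62.5 CPM in NestinCre EAE. Levels over all members therefore move also with how many nuclei each cluster gave, and the part of that in the results was not tested.

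All other nuclei showed the same direction at lower levels. Gm4951 stood there at 2 ± 2.37 CPM in fl EAE and 29.6 ± 8.84 CPM in NestinCre EAE (SD, n = 4 each), and Iigp1 at 2.39 ± 4.07 and 52.5 ± 15.8 CPM. The genotype difference of the members exceeded that of the other nuclei by 0.68 on the log2 scale for Gm4951 (SE 0.64) and 0.71 for Iigp1 (SE 0.63). Neither passed edgeR's test of the difference (adjusted p = 1 for each), so a larger response in the members was not shown. Against endothelial nuclei (90 nuclei chosen by a like rule, 2 to 19 per library) the excess was 2.51 for Gm4951 (SE 1.22) and 2.55 for Iigp1 (SE 1.33), also with an adjusted p of 1 in edgeR. Infiltrating phagocyte markers were higher in NestinCre EAE in the fibroblast-led clusters: their summed level was 0 to 28.9 CPM in fl EAE and 65.1 to 463 CPM in NestinCre EAE, with S100a4 and F10 at 0 of the 8 markers. The counts behind this were few, since 3 counts stand there for 39.1 to 174 CPM across the EAE libraries. Over all members the genotypes overlapped, at 9.21 to 95 CPM against 23.2 to 224 CPM. Vcan of this list also stood among the oligodendrocyte progenitor markers. In all other nuclei the same markers summed to 30.5 to 45.6 CPM and 46.2 to 198 CPM. T or NK cell markers summed to 28.4 to 116 CPM in fl EAE and 0 to 104 CPM in NestinCre EAE in the fibroblast-led clusters, with 7 of 10 at 0, among them Cd3e, Cd3g and Ncr1. In all other nuclei they summed to 19.4 to 30.4 CPM in fl EAE and 39.9 to 74.6 CPM in NestinCre EAE, without overlap. The part of infiltrating cells in these results was not tested.

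The wider set of interferon-responsive genes was mostly too sparse for the main test. That test kept 2 of 20 GTPase genes and none of the 21 MHC class I, 35 antiviral or 7 detected MHC class II genes. Both GTPase genes passed its filter only through the NestinCre EAE libraries, so that their 2 calls are no separate support for the list. A fit on all 17035 genes with at least 1 UMI called 65 genes, 0.382% of those tested, of which 47 were higher in NestinCre. Its p-values follow a normal distribution of the fold change over its SE. A gene's own spread between libraries therefore had little or no weight. The fit can thus call a gene on the counts of 1 library. It called 9 of 20 GTPase genes higher (Gbp3, Gbp4, Gbp5, Gbp7, Gbp8, Irgm1, Irgm2, Iigp1 and Gm4951), 5 of 21 MHC class I genes (H2-K1, H2-D1, B2m, Tap1 and Nlrc5), 6 of 35 antiviral genes (Ifit1, Ddx60, Oasl2, Oas2, Herc6 and Rnf213) and 3 of 34 chemokine and stromal immune genes (Ccl19, Cxcl9 and Cd274). No gene of these lists was called lower, and MHC class II had 0 of 7 called. Several of the genes, among them B2m, H2-K1, H2-D1, Tap1 and Nlrc5, had been picked by the study from these same libraries, so that their direction is not independent evidence. Guanylate-binding proteins such as Gbp7 attack pathogen membranes, Nlrc5 drives transcription of the MHC class I genes, and Tap1 moves peptides towards them.

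The separation was seen in several classes of these genes. Gbp7 had 2, 1, 5 and 0 UMIs across fl EAE and 26, 4, 18 and 14 across NestinCre EAE. Nlrc5 had 1, 0, 6 and 1 UMIs against 29, 8, 8 and 11. Rnf213, a ubiquitin ligase of cell-autonomous defence, had 1, 2, 7 and 6 UMIs against 40, 8, 32 and 21. In CPM none of these overlapped between the genotypes. Tap1 was at 0 UMIs in all 4 fl EAE libraries and at 6, 2, 5 and 4 in NestinCre EAE. B2m, the invariant chain of MHC class I, had 3, 4, 4 and 1 UMIs against 21, 5, 9 and 87. H2-K1 had 2, 2, 6 and 5 UMIs against 8, 2, 11 and 70 and did overlap. In the fibroblast-led clusters alone it was higher in every NestinCre EAE library.

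The highest B2m and H2-K1 counts came from NestinCre EAE 4, a library that stood apart. In its fibroblast-led clusters 12 endothelial markers summed to 9841 CPM and 12 mural markers to 4660.2 CPM. NestinCre EAE 3 had 2155 and 2398 CPM, and no other library exceeded 637 CPM for endothelial or 924 CPM for mural markers. With NestinCre EAE 4 left out of the fit on all genes, 62 genes were called (0.374%), and the MHC class I count fell from 5 to 2 (Tap1 and Nlrc5). The GTPase count went from 9 to 7 and the antiviral count from 6 to 4, while chemokine and stromal immune genes had 4. That alternative was chosen after seeing the data. In the main test, leaving out the same library kept all 3 calls.

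Without any test, 168 of the 17035 genes with a UMI stood higher in every NestinCre EAE library than in every fl EAE library in CPM, a background of 0.986%. In the same terms 8 of 20 GTPase genes, 7 of 21 MHC class I genes, 2 of 35 antiviral genes and 2 of 34 chemokine and stromal immune genes (Cxcl13 and Cd274) were higher. In the fibroblast-led clusters alone, 156 of 14438 genes with a UMI were higher throughout (1.08%). There the counts were 10 of 20 GTPase, 8 of 21 MHC class I, 9 of 35 antiviral and 4 of 32 chemokine and stromal immune genes (Cxcl10, Cxcl12, Osmr and Cd274), and the interferon regulatory factor genes Irf1 and Irf2 separated too. In the other direction 228 of the 14438 genes were lower throughout (1.58%), among them Ifngr2, a chain of the interferon-γ receptor, on 1 UMI in each fl EAE library and 0, 0, 0 and 1 in NestinCre EAE. No MHC class II gene separated in either set. The sum of that list did separate over all members, at 9.21 to 36.2 CPM in fl EAE and 47.1 to 88.9 CPM in NestinCre EAE. Naive libraries stood at 34.6 to 70.6 CPM. In all other nuclei it was 27.8 to 48.8 CPM against 123 to 167 CPM. In the fibroblast-led clusters the genotypes overlapped, at 0 to 114 CPM against 30.4 to 156 CPM. The summed level of the MHC class I list in these clusters was 463, 459.7, 313 and 229 CPM across fl EAE and 2137, 2200.2, 2428 and 4205 CPM across NestinCre EAE. For GTPases the sums were 203, 197, 199 and 123 CPM against 6544, 8048, 5190.5 and 2174 CPM. Antiviral genes summed to 897, 1018, 852 and 547 CPM against 4222, 3011, 4371 and 2955 CPM. Naive libraries overlapped fl EAE for each list, at 434 to 454 CPM for MHC class I, 164 to 257 CPM for GTPases and 794 to 1221 CPM for antiviral genes. All other nuclei moved the same way, with MHC class I at 103 to 174 CPM in fl EAE and 292 to 603 CPM in NestinCre EAE. GTPases stood there at 8.92 to 52.8 CPM and 179 to 415 CPM. Both upper ends of fl EAE came from fl EAE 3, and the rest of fl EAE had 8.92 to 10.3 CPM of GTPases. Antiviral genes in all other nuclei were also highest in fl EAE 3, at 149 CPM against 75.7 to 93.2 CPM in the rest of fl EAE.

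**Figure D4:**
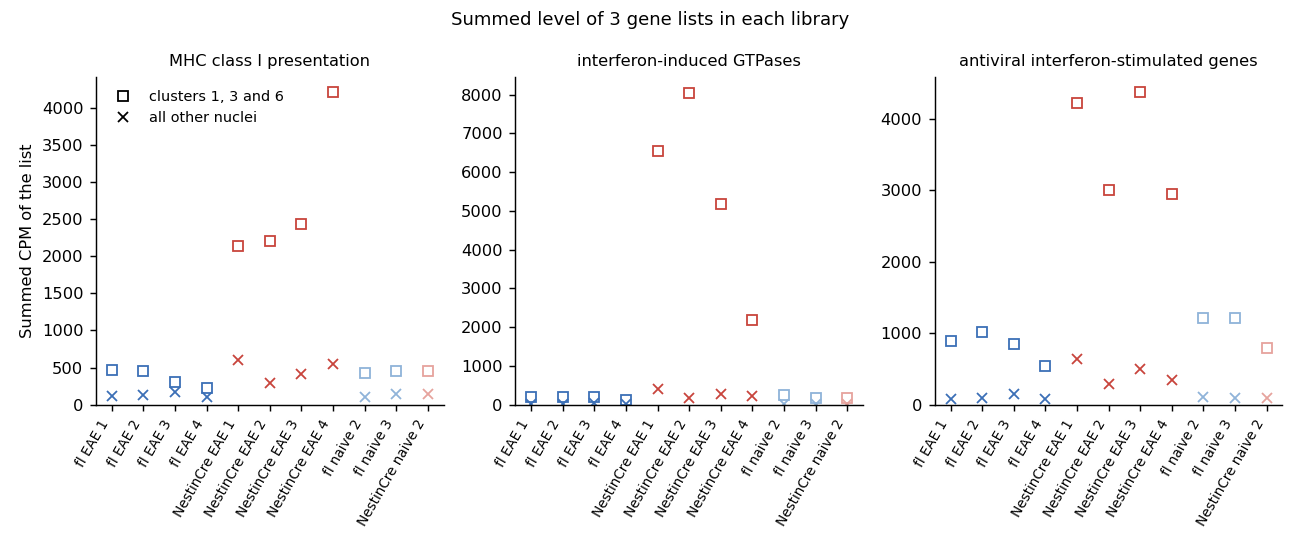
Summed CPM of the MHC class I, interferon-induced GTPase and antiviral gene lists in each library, in fibroblast-led clusters 1, 3 and 6 (squares) and in all other nuclei (crosses), with fl in blue, NestinCre in red and naive libraries paler. The squares of the 4 NestinCre EAE libraries lie above those of the fl EAE and naive libraries in each panel, with MHC class I at 2137 to 4205 CPM against 229 to 463 CPM in fl EAE.

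Some of these genes share a short promoter element. The interferon-stimulated response element has the core GAAANNGAA, and the gamma-activated site has the core TTCNNNGAA. Both strands of the 250 bases before each start were searched in the RefSeq table of GRCm38.p6, where 8.18% of 27025 genes held the former and 8.13% the latter. Among the interferon-induced GTPases with an entry, 9 of 10 held GAAANNGAA and 6 of 10 held TTCNNNGAA. The counts for GAAANNGAA were 14 of 28 antiviral genes, 4 of 17 MHC class I genes, 6 of 28 chemokine and stromal immune genes, 3 of 16 signalling genes and 0 of 31 fibroblast markers outside the rule. Those for TTCNNNGAA were 4, 2, 3, 5 and 0 of the same lists in that order. A match is a description of these letters and shows neither binding nor use. Gm4951 and Iigp1 had no entry.

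Of 10 genes with a promoter read here that were higher in every NestinCre EAE library, from the MHC class I, GTPase, signalling and antiviral lists, 5 held GAAANNGAA, and H2-Q4, H2-Q7, Parp12, Rnf213 and Tap1 did not. The promoters of 3 of the former are shown: B2m at chr2:122147437-122147686, Gbp7 at chr3:142530086-142530335 and Irgm2 at chr11:58214727-58214976, all on the plus strand of GRCm38.p6. They were chosen after their values were seen, and capitals mark GAAANNGAA or, in Gbp7, its reverse complement.
B2m: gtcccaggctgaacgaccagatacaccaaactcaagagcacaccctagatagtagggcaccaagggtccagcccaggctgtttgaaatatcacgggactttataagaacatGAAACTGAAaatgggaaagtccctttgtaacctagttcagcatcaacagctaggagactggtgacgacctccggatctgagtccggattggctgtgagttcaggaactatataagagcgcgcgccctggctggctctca
Gbp7: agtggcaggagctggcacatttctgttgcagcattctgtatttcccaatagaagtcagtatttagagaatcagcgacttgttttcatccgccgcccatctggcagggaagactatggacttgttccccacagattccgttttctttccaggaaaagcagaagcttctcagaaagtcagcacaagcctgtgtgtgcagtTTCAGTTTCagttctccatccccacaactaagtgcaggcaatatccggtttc
Irgm2: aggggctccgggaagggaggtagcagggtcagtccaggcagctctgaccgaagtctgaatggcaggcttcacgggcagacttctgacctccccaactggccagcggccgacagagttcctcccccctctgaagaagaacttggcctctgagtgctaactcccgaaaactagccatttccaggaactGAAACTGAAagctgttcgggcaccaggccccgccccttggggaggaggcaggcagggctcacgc
Irgm2 encodes a regulator of the immunity-related GTPases and had 1, 2, 4 and 3 UMIs across fl EAE and 14, 11, 9 and 17 across NestinCre EAE. All 3 genes thus had a low count in each fl EAE library.

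The fibroblast programme itself gave no call between the genotypes in the main test and a few in both directions in the fit on all genes. Of 40 leptomeningeal and fibroblast markers outside the rule, 19 were tested in the main fit and 0 called, with a median log2 fold change of -0.30 (5 above 0 and 14 below) beside 0.01 over all 2894 genes. Ptgds, at 1409.7 ± 499.7 CPM in fl EAE and 1437 ± 1388 CPM in NestinCre EAE (SD, n = 4 each), and Apod, a lipid carrier, at 715 ± 582 and 1057 ± 675 CPM, had the highest levels. Medians were -0.22 for 7 basement membrane genes tested, 0.12 for 4 collagens, 0.27 for 6 matrix remodelling genes, -0.18 for 11 solute transporters and -0.52 for 4 dural and border cell genes, with 0 called in each by the main test. Lama2, a laminin chain, stood at 794 ± 629.6 and 402 ± 186 CPM, and Lama1 at 354 ± 96.1 and 316 ± 267 CPM. Col25a1 stood at 295 ± 205 and 250.2 ± 198 CPM. The hyaluronan-degrading gene Cemip stood at 485 ± 149 and 383 ± 438 CPM. In each of these genes the genotypes overlapped. They overlapped in the fibroblast-led clusters too, where Ptgds stood at 4767 ± 1855 and 3811 ± 4182 CPM, and Apod at 2105 ± 1447 and 3218 ± 1884 CPM. Lama2 was there at 1447 ± 670.1 and 1027 ± 254 CPM, Lama1 at 1158 ± 195 and 827 ± 386 CPM, Col25a1 at 845 ± 878 and 575 ± 629 CPM, and Cemip at 1451 ± 198 and 1284 ± 1338 CPM.

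The matrix remodelling list depended on which nuclei were summed. Its summed level was 1758 to 2963 CPM in fl EAE and 2193 to 4504 CPM in NestinCre EAE over all members, and 4319 to 5904 CPM against 5871 to 8396 CPM in the fibroblast-led clusters, where the ranges just overlapped. In nuclei with 3 or more markers it was 2299 to 4737 CPM against 5812 to 10229 CPM, without overlap, and naive libraries stood at 5103 to 6999 CPM. Those nuclei numbered 11, 11, 10 and 16 across fl EAE but 8, 2, 5 and 10 across NestinCre EAE. The highest value came from the 2 nuclei of NestinCre EAE 2. Summed neuron markers in those stricter nuclei were higher in fl EAE (649 to 2434 CPM) than in NestinCre EAE (219.9 to 485 CPM), and their part in the level of the list was not tested. Basement membrane genes and collagens overlapped between the genotypes in all 3 sets of nuclei.

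The fit on all genes called 1 of 38 fibroblast markers higher (Fn1, fibronectin) and 1 lower (Slc47a1), 2 of 17 collagens lower (Col24a1 and Col8a1), 1 of 21 basement membrane genes higher (Lama4), 2 of 42 matrix genes higher (Tnc, tenascin C, and Fn1), 2 of 28 transporters lower (Slc47a1 and Slc39a12), 1 of 10 dural and 1 of 11 arachnoid barrier genes lower (Slc47a1 in both), and 1 of 39 growth factor genes lower (Rspo3). Over all 17035 genes this fit called 47 higher and 18 lower, 0.382% together. It put little or no weight on a gene's own spread between libraries, and single libraries held most UMIs of some genes named here. Tnc had 0, 3, 7 and 16 UMIs across fl EAE and 5, 1, 92 and 5 across NestinCre EAE, and Fn1 had 8, 1, 4 and 2 against 3, 23, 6 and 46. Col24a1 had 1, 0, 2 and 24 UMIs against 0, 0, 0 and 2. Rspo3, an enhancer of Wnt signalling, had 21, 14, 10 and 9 UMIs against 0, 2, 2 and 8. Without NestinCre EAE 4, Slc47a1, Lama4, Tnc and Rspo3 kept their calls, Fn1, Col8a1, Col24a1 and Slc39a12 did not, and Pdgfra and Cp were called higher. By separation of libraries in CPM, Lama4 and Col18a1, 2 of 21 basement membrane genes, were higher in every NestinCre EAE library, beside the 0.986% of all genes. Lower in every NestinCre EAE library were 247 of the 17035 genes (1.45%), among them 2 of 38 fibroblast markers (Slc47a1 and Slc22a6), 2 of 10 dural genes (Foxp1 and Slc47a1), 1 of 17 collagens (Col8a1) and 3 of 39 growth factor genes (Pdgfrl, Tgfbr1 and Rspo3).

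Smaller lists gave 0 calls in the main test as well. Retinoic acid genes had 2 tested with a median of -0.25, where Aldh1a1 stood at 386 ± 235 CPM in fl EAE and 307 ± 396 CPM in NestinCre EAE (SD, n = 4 each). Growth factor and morphogen genes had 11 tested with a median of -0.18. Fgfr2, a fibroblast growth factor receptor, stood there at 823 ± 197 and 691 ± 65.2 CPM, and Bmp6 at 441 ± 180.0 and 366 ± 156 CPM. Glucocorticoid-responsive genes had 7 tested with a median of -0.22, and Zbtb16 stood at 248 ± 147 and 186 ± 177 CPM. Acute phase and stress genes had 4 tested with a median of 0.87, pial and perivascular genes 2 with 0.65, chemokine and stromal immune genes 2 with 0.63, and arachnoid barrier genes 3 with 0.09. In the fibroblast-led clusters the acute phase list summed to 897 to 1905 CPM in fl EAE and 1966 to 5673 CPM in NestinCre EAE. Chemokine and stromal immune genes summed there to 796 to 1729 CPM against 2122 to 7006 CPM. Neither sum overlapped there, but over all members both did. Il34, a cytokine of macrophage survival in the stromal immune list, stood at 110.3 ± 68.5 and 114 ± 112 CPM. In the fibroblast-led clusters the genotypes overlapped for each of these genes. Fgfr2 stood there at 887 ± 222 and 669 ± 207 CPM, Bmp6 at 1359.8 ± 485 and 988 ± 165 CPM, Aldh1a1 at 563 ± 118 and 574 ± 774 CPM, Zbtb16 at 488 ± 375 and 413 ± 319 CPM, and Il34 at 348 ± 226 and 289 ± 198 CPM.

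A few list members had an unadjusted p under 0.05 in the main test without passing adjustment. Over all genes tested, such p-values were fewer than that limit would let through by chance if no gene differed. Slc47a1 had a negative value (log2 fold change -2.40, SE 0.72, adjusted p = 0.999 in edgeR), with 54, 20, 17 and 25 UMIs across fl EAE and 0, 2, 5 and 15 across NestinCre EAE. The libraries did not overlap in CPM, and the fit on all genes called it (log2 fold change -2.45, adjusted p = 1.99e-05 in edgeR). It was called there also without NestinCre EAE 4. Slc47a1 led cluster 3, which gave 5, 2, 4 and 5 nuclei in fl EAE and 1, 1, 1 and 3 in NestinCre EAE, so its level cannot be told apart from the number of such nuclei. Cp, the copper carrier ceruloplasmin, had a positive value (log2 fold change 1.52, SE 0.62, adjusted p = 0.999 in edgeR), at 12, 26, 66 and 85 UMIs against 171, 64, 69 and 78, and the genotypes overlapped. Lama4, a laminin chain, had a log2 fold change of 1.73 (SE 0.45, adjusted p = 0.999) and was called by the fit on all genes (1.66, adjusted p = 0.0141 in edgeR).

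Outside the lists, the genes with the smallest p after the called ones were Ebf3 (log2 fold change 1.61, adjusted p = 0.589), Heg1 (1.73, adjusted p = 0.673), Lgi1 (-1.37, adjusted p = 0.918), Mast4 (1.11, adjusted p = 0.918) and Far1 (1.12, adjusted p = 0.999), all by edgeR and none called in the main test. The fit on all genes called Heg1 (1.69, adjusted p = 0.0108 in edgeR), and DESeq2 called Heg1 (adjusted p = 0.0389) and Mast4 (adjusted p = 0.00419). Heg1 encodes a transmembrane protein of endothelial junctions. It had 9, 4, 5 and 14 UMIs across fl EAE and 12, 24, 13 and 50 across NestinCre EAE, and its difference exceeded that of the other nuclei by 1.64 (SE 0.40, adjusted p = 0.0612 in edgeR). Requiring 3 or more markers, met by 2 to 16 nuclei per EAE library, left 493 genes, of which 9 were called (1.83%). Gm4951, Iigp1 and Etv6 were among those higher in NestinCre, and lower were Slc4a10, Kcnip4, Unc5c, Lrp1b and Cntnap2, of which several are expressed in neurons. Summed neuron markers in those stricter nuclei were 649 to 2434 CPM in fl EAE and 219.9 to 485 CPM in NestinCre EAE, and their part in the lower calls was not tested.

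A test against all other nuclei called 6 genes whose genotype difference departed from that of those nuclei. Its p-values follow a normal distribution, so a gene's own spread between libraries had little or no weight. The fit also used the same estimate of spread for member sums and for the far deeper sums of other nuclei. This test asked, over 16995 genes and with each library as its own control, whether the NestinCre minus fl difference was unequal in members and other nuclei, and edgeR called 6 genes (0.0353%; 744 had an unadjusted p under 0.05). Igfbp7, a secreted vascular and stromal binding protein of insulin-like growth factors (log2 difference 2.37, SE 0.49, adjusted p = 0.00508), Kcnmb2, a potassium channel subunit (2.24, SE 0.43, adjusted p = 0.00131), and Cdh13, a cadherin (1.73, SE 0.38, adjusted p = 0.0168 in edgeR), were relatively higher in NestinCre members. Abca8a, a lipid transporter (-2.71, SE 0.51, adjusted p = 0.00131), Mertk, a phagocytic receptor (-2.12, SE 0.42, adjusted p = 0.00199), and Egfem1 (-1.89, SE 0.37, adjusted p = 0.0019 in edgeR) were relatively lower.

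Their UMIs came from different clusters. Abca8a had 9, 16, 14 and 25 UMIs across fl EAE and 6, 0, 4 and 20 across NestinCre EAE. Nearly all of these, 9, 16, 13 and 20 against 6, 0, 4 and 19, were in fibroblast-led clusters. Igfbp7 had 20, 1, 2 and 1 UMIs against 3, 13, 13 and 166, so that NestinCre EAE 4 held most of them, and without that library the difference was 1.49 and was not called. In CPM over all members the genotypes overlapped for 5 of the 6 genes and not for Mertk, which stood at 95.01, 166, 103 and 367 CPM against 66.5, 0, 78.5 and 77.3 CPM. In the fibroblast-led clusters Abca8a did not overlap, at 260.5, 525, 369 and 353 CPM against 158, 0, 121 and 247 CPM. Mertk did overlap in those clusters. Kcnmb2 had 4, 11, 3 and 3 UMIs against 13, 39, 2 and 65, of which 0, 10, 0 and 1 against 0, 0, 2 and 0 were in fibroblast-led clusters. Egfem1 had 160, 29, 171 and 37 UMIs against 28, 17, 2 and 53, with 1, 0, 0 and 0 against 1, 0, 2 and 0 there. Cdh13 had 15, 6, 33 and 5 UMIs against 52, 71, 6 and 40, with 4 of them there, in NestinCre EAE 4. Mertk had 12, 18, 20 and 60 UMIs against 8, 0, 5 and 20, with 4, 4, 6 and 7 against 1, 0, 5 and 10 there. Most UMIs of Egfem1, Cdh13, Kcnmb2 and Mertk thus came from outside the fibroblast-led clusters. Exceptions were Kcnmb2 in fl EAE 2, the 2 UMIs each of Kcnmb2 and Egfem1 in NestinCre EAE 3, and Mertk in NestinCre EAE 3 and 4. With 3 or more markers required, 137 genes were called, of which 3 were higher and the others lower. Genes were filtered anew in that setting, so the 137 are not out of the genes of the main fit. Abca8a kept its call there, and Kcnmb2 (-2.85) and Cdh13 (-1.21) turned direction. Neuron markers in those stricter nuclei were also lower in NestinCre, at the values given above, and their part in these calls was not tested. Without single libraries the number of calls ran from 3 (fl EAE 3 left out) to 21 (fl EAE 1 left out), and it was 16, 14, 16 and 12 on leaving out each NestinCre EAE library in order. Abca8a kept its call throughout, but the others did not. Igfbp7 lost it also without fl EAE 2 (2.06) or 3 (1.96), and Kcnmb2 without fl EAE 3 (1.83) or NestinCre EAE 2 (1.80). Cdh13 lost it without fl EAE 2 (1.61) or 4 (1.44) or NestinCre EAE 1 (1.39) or 2 (1.13), Mertk without fl EAE 4 (-1.69), and Egfem1 without fl EAE 1 (-1.43) or 3 (-1.73).

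**Figure D5:**
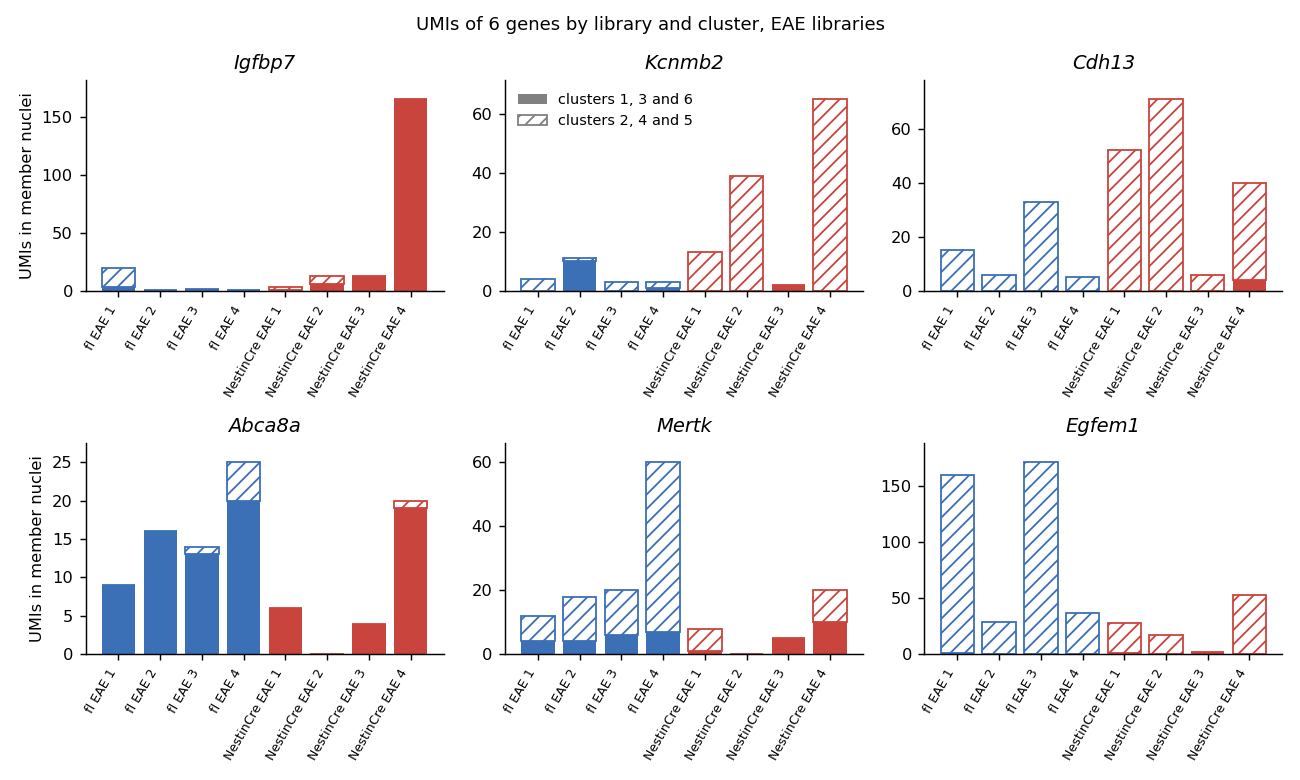
UMIs of the 6 genes in the member nuclei of each EAE library, fl in blue and NestinCre in red, with filled bars for fibroblast-led clusters 1, 3 and 6 and hatched bars for clusters 2, 4 and 5. Abca8a lies mostly in filled bars, as do the 166 UMIs of Igfbp7 in NestinCre EAE 4, while Egfem1, Cdh13 and, outside fl EAE 2, most of Kcnmb2 lie in hatched bars. Most UMIs of Mertk in fl EAE also lie in hatched bars.

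By lists, the same comparison gave a single call in a list, Abca8a among 26 solute transporters tested. The median log2 difference was -0.22 for 38 fibroblast markers, 0.08 for 21 basement membrane genes, -0.72 for 17 collagens, 0.27 for 21 MHC class I genes, -0.63 for 20 GTPase genes and -0.18 for 35 antiviral genes, beside -0.03 over all genes. Of the GTPase and antiviral genes the filter on members alone kept 2 and 0, so these medians rest mostly on genes sparse in members. GTPase genes summed on average to 141 CPM in fl EAE and 1821 CPM in NestinCre EAE members. In the other nuclei they summed to 20.4 and 275 CPM. Against endothelial nuclei 0 of 3168 genes were called (0%; 97 had an unadjusted p under 0.05). The smallest p belonged to Grik1 (-4.16, adjusted p = 0.530), St6galnac3 (2.61), Rgs7bp (-2.78), Sema3a (-7.65) and Celf4 (2.29), with an adjusted p of 1 in edgeR for the last 4. Celf4 turned to -0.50 with 3 or more markers required.

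Disease itself gave no call in either genotype in the main test. A fit on all 17685 genes with a UMI called 39 genes for fl EAE (0.221%), 33 of them higher, and 26 for NestinCre EAE (0.147%), 19 of them higher, and requiring 3 or more markers gave 1 call for NestinCre EAE. Members of fl EAE and of NestinCre EAE were each compared with the 3 naive libraries, which the comparisons share, in a fit with run as a covariate that rests on fl naive 2 as the naive library of run 2. For fl EAE, 0 of 3818 genes were called by edgeR (0%; 166 had an unadjusted p under 0.05, and DESeq2 called 0). The smallest p belonged to Pla2g7 (7.98), Nwd1 (7.69), Adamts12 (-3.27), Stk32a (8.59) and Sparcl1 (2.19), each with an adjusted p of 0.845. Pla2g7, Nwd1 and Stk32a were at 0 UMIs in fl naive 2, so their fitted values are no measure of size. Nwd1 was a leading gene of cluster 4 and Stk32a of cluster 5. To these clusters together fl naive 2 gave 0 nuclei and fl EAE gave 3, 4, 8 and 10. The comparison therefore also moves with the clusters that each library gave. Adamts12, a secreted metalloproteinase, had 17, 19, 31 and 24 UMIs across fl EAE but 132, 25 and 44 in the naive libraries, so that fl naive 2 stood apart from the other naive libraries.

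For NestinCre EAE, 0 of 3818 genes were called as well (0%; 144 had an unadjusted p under 0.05, and DESeq2 called 0). Among the 5 genes of smallest p were Ifitm3 (log2 fold change 5.29), Epha4 (4.06) and Slc4a4 (3.28), with an adjusted p of 1 in edgeR for each. The interferon-induced membrane protein gene Ifitm3 had 11, 2, 7 and 96 UMIs across NestinCre EAE and 1, 2 and 10 in the naive libraries. Without the run term 3 genes were called, Gm4951 and Iigp1 among them. A single naive library shared a run with EAE libraries, and sums that missed the threshold here do not show equal levels.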

How the data were processed

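Nuclei of the cerebellum, of the brainstem of 1 hemisphere and of the upper cervical cord were sorted on Hoechst, without exclusion of doublets by scatter, and sequenced on the 10x platform by the authors, who made the deposited counts of UMIs per gene and nucleus with Cell Ranger (7.0.0 in the file headers of run 1, 6.0.2 in those of runs 2 and 3) on GRCm39, introns included. Each matrix listed 25827 genes. Filtering, clustering (2000 variable genes, 20 principal components, 15 neighbours, Leiden resolution 0.5) and doublet scoring used scanpy 1.11.5 under Python 3.11.15. Member UMIs were summed per library, filtered with filterByExpr, scaled with TMM and tested by the quasi-likelihood method of edgeR 4.0.16 (R 4.3.3) with run as a covariate and a threshold of 0.05 on adjusted p. Differences against other nuclei used a term for each library. Shares were tested by exact permutation in scipy 1.17.1. Some genes that the rule would name are not reported here. Code was tested on simulated data. Depth limits precision: members held 63725 to 258841 UMIs per library, where 3 counts stand for 11.6 to 47.1 CPM, and intervals cover counting error only. The members and the gene lists were chosen with earlier results of these data known. Genes were named by rule: called genes, otherwise the 5 of smallest p, and per list its called members or the 2 of highest level; a few further list members with an unadjusted p under 0.05, or with separated libraries, were picked after their values were seen. Alternatives were DESeq2 1.42.0, other filters and marker limits, and leaving out libraries.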

Additional observations from a re-analysis of the deposited data

Results flagged for a closer look

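A test of the difference itself, the interaction term in edgeR, called 6 genes whose genotype difference in the member nuclei departed from that in all other nuclei. The members include clusters that went against the label. The test gave a gene's own spread between libraries little or no weight. Relatively higher in NestinCre were Igfbp7 (log2 difference 2.37), Kcnmb2 (2.24) and Cdh13 (1.73). Relatively lower were Abca8a (-2.71), Mertk (-2.12) and Egfem1 (-1.89). Abca8a kept its call in each of 12 alternatives. The remaining 5 lost it under at least 1 of them, and most UMIs of Kcnmb2, Cdh13, Egfem1 and Mertk came from outside the fibroblast-led clusters. The difference of Igfbp7 ran from 1.49 to 4.24 on leaving out single libraries. NestinCre EAE 4 held 166 of its UMIs, and in that library the fibroblast-led clusters had 9841 CPM of endothelial and 4660.2 CPM of mural markers, whose part in the difference was not tested. No library of a group of 4 stood apart from the others by Dixon's criterion in the shares or in the levels of Gm4951 and Iigp1, among the values tested that way. Summed GTPase genes of fl EAE 3 were nevertheless far above the rest of fl EAE in all other nuclei, at 52.8 CPM against 8.92 to 10.3 CPM. Over all members they were 362 CPM against 48.9 to 79.2 CPM. In the fibroblast-led clusters fl EAE 3 had 199 CPM, within the 123 to 203 CPM of fl EAE.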

How the results depend on the processing

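The lower share of members in EAE than in naive libraries passed the exact permutation test with 3 or more markers (-0.0602 points, p = 0.0182) and with a limit of 200 genes in run 1 (-0.0736, p = 0.0485), and leaving out a library gave -0.113 to -0.0436. The genotype difference in share ran from -0.0529 to -0.0278 points without single libraries and did not pass under the alternatives run, of which run 1 alone (smallest possible p 0.1) and the replicate block (0.125) could not have passed. The 3 genotype calls became 65 without the filter on low counts, 62 with NestinCre EAE 4 also left out (chosen after seeing the data), 9 with 3 or more markers, 6 by DESeq2, and 0 to 3 without single libraries. The fit that gave 65 calls put little or no weight on a gene's own spread between libraries. Against naive, the filter's removal gave 39 calls for fl EAE and 26 for NestinCre EAE, where 3 or more markers gave 1 and no run term gave 3. Against endothelial nuclei it gave 1 and 3 or more markers gave 2, with Celf4 reversed at -0.50. Against all other nuclei, 3 or more markers gave 137 calls, 3 of them higher, with Kcnmb2 (-2.85) and Cdh13 (-1.21) reversed, and leaving out a library gave 3 to 21. The cause of these shifts was not tested. Genes were filtered anew in most settings, so the counts of calls are not out of the same total. Replicate numbers did not pair the samples (correlations of same-numbered libraries of run 1 were -0.162, -0.0435 and -0.173); with the replicate block, 2 genes were called, Iigp1 missing the threshold at an adjusted p of 0.0538 in edgeR, and the share differed by -0.0391 points (exact permutation p = 0.25, smallest possible 0.125). The fits against naive without fl naive 2 could not be estimated. Member counts of 10 to 44 nuclei per library limit what sparse genes can show. With 3 or more markers required, NestinCre EAE 2 held only 2 nuclei.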
